A study of Mus musculus with 31 samples.

Results

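The embryonic and adult haemoglobin genes were followed across E13.5 eyes of WT and Ftx-deficient mouse embryos. The members were 7 genes, Hbb-y, Hbb-bh1, Hba-x, Hbb-b1, Hbb-b2, Hba-a1 and Hba-a2. Every probe that was not a control and carried 1 of these gene names in the array files was taken. This gave 8 of the 55681 probes of the array, with 2 probes for Hbb-y and 1 for each other gene. All 8 were among the 14051 probes tested, which were those with a mean signal above 500 in the WT females.

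RNA of 20 eyes was measured on 31 arrays with 1 dye, from 3 WT females, 3 WT males, 3 Ftx-/Y males and 11 Ftx-/- females, and each Ftx-/- eye had 2 arrays. The study asked how loss of Ftx, an X-linked long non-coding RNA gene, alters gene expression in the eyes of female and male embryos. All embryos were C57BL/6N, the pigmented layer had been dissected away, and the Ftx-deficient eyes had a normal appearance. The deletion was constitutive, so blood cells lacked Ftx as well, and the targeted allele also removes microRNAs that lie within an Ftx intron. The sources do not say whether any 2 eyes came from the same embryo, and the p-values measure the spread between eyes. The study used 1 further WT female eye, which was not analysed here.

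The arrays lay on 4 slides. Slide 1 held all 6 WT eyes and Ftx-/Y eye 1, slide 2 held Ftx-/Y eyes 2 and 3 with Ftx-/- eyes 1 to 3, and slides 3 and 4 held Ftx-/- eyes 4 to 7 and 8 to 11. Slide 1 was scanned on 1 day and the other slides on another. No slide therefore held both Ftx-/- and WT eyes, and these are linked only through the Ftx-/Y eyes. Ftx is named B230206F22Rik on the array and has 2 probes. The brighter had a mean normalized signal of 101 in WT females, 106 in WT males, 16.5 in Ftx-/Y males and 21.8 in Ftx-/- females. All 6 WT arrays read it well above background, none of the 3 arrays of Ftx-/Y eyes did, and 9 of the 22 arrays of Ftx-/- eyes did. The dimmer probe had means of 40.5, 18.9, 13.7 and 9.78 in the same order, and was well above background on 2 of 3 arrays of WT females and 0 of 3 of WT males. No haemoglobin spot or any other spot was saturated, and all 8 haemoglobin probes were well above background on all 31 arrays. The 2 arrays of an Ftx-/- eye differed by at most 0.13 to 0.31 on the log2 scale for the 8 probes.

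Haemoglobin is a tetramer of alpha-like and beta-like globin chains, each holding a haem. In mouse embryos the first red cells, called primitive, arise in the yolk sac, circulate with a nucleus and use the embryonic genes Hba-x for the alpha-like chain and Hbb-bh1 and Hbb-y for the beta-like chain, while adult alpha genes are also active in them. Within maturing primitive cells Hbb-bh1 declines before Hbb-y. Definitive red cells, made in the fetal liver, use the adult genes Hba-a1 and Hba-a2 with the adult beta genes. The alpha-like genes form a cluster on chromosome 11 and the beta-like genes a cluster on chromosome 7, each with its embryonic genes first. A whole eye holds blood in its vessels, which is a source of globin RNA, and the arrays do not show which cells the RNA came from.

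Probe sequences are printed for some of the members. No probe was aligned to transcripts, so which transcripts a probe can read apart was not tested. The 60-base probes of Hbb-y and Hba-x printed first stand for the embryonic genes, and those of Hbb-b2 and Hba-a1 for the adult genes of the beta and alpha clusters. The capitals in the last pair mark bases that are identical in 26 aligned positions, of which 20 match, a stretch of coding sequence that alpha-like and beta-like chains share.
Hbb-y (5′ probe): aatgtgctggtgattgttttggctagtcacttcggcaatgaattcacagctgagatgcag
Hba-x: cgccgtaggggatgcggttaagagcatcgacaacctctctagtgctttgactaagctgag
Hbb-b2: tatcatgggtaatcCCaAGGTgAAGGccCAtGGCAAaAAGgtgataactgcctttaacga
Hba-a1: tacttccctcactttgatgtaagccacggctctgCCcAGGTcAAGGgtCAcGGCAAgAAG

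The array files place the probes on build mm9. The 2 Hbb-y probes lie at chr7:111000268-111000327 and chr7:111000448-111000507, both on the minus strand. The first holds the polyadenylation signal AATAAA and is called the 3′ probe here, and the other the 5′ probe. The Hbb-bh1 probe lies at chr7:110990209-110990268 and the Hbb-b1 probe at chr7:110961105-110961164, both on the minus strand. Hba-x is read at chr11:32177668-32177727, Hba-a1 at chr11:32183955-32184014 and Hba-a2 at chr11:32197245-32197304, all on the plus strand. Hba-a1 and Hba-a2 are near-identical copies, so their probes are read as signals of the adult alpha genes together. The Hbb-b2 probe has no position in the files. Mouse strains differ in their adult beta genes, and C57BL/6 carries Hbb-bt and Hbb-bs. In the RefSeq gene table of GRCm38.p6 the transcript that the Hbb-b1 probe was designed on is named Hbb-bt, and the array names a probe of the other adult gene Beta-s. Which adult beta transcripts the Hbb-b2 probe bound in these eyes was not tested.

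The stretches of 120 bases before the transcription start show the elements that globin promoters are known for. They were taken from RefSeq on GRCm38.p6, where 4 of the 7 members were found, and Hbb-bt and Hbb-bs are added as the adult beta genes of the strain. Capitals mark every match, on either strand, to 5 motifs. They are CACCC, the box bound by Klf1 and its relatives, then CCAAT, the box of many promoters, then GATAA, the core bound by GATA factors, and the TATA box in the form ATATAA or in the weaker form ATAAAA. In Hbb-bt 2 matches to the CCAAT box, on opposite strands, lie next to each other.
Hbb-y, chr7:103853208-103853327, minus strand: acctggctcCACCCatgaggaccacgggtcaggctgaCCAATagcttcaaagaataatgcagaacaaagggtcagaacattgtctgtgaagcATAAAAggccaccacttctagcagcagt
Hbb-bt, chr7:103813924-103814043, minus strand: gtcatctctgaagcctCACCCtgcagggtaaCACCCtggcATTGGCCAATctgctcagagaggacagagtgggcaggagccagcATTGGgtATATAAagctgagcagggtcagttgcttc
Hbb-bs, chr7:103827929-103828048, minus strand: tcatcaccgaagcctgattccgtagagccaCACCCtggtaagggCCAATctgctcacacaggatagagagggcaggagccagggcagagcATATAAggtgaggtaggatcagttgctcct
Hba-x, chr11:32276480-32276599, plus strand: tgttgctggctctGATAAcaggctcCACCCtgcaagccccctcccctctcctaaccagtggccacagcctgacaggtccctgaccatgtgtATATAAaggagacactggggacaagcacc
Hba-a1, chr11:32283552-32283671, plus strand: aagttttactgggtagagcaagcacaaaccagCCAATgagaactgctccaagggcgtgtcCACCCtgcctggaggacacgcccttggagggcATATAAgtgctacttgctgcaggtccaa

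The window of Hba-a2, the near-identical copy of Hba-a1, is not printed. All 5 printed windows and that of Hba-a2 held CACCC, with 2 matches in Hbb-bt, and all held a TATA form whose first base lay between -31 and -28 from the start. Among these windows CCAAT or its reverse complement was found in all but that of Hba-x, and GATAA in Hba-x alone. The window of Hbb-bh2, a further gene of the beta cluster that is no member, was also searched. It held 0 matches to each of the 5 motifs. Among all 32851 promoters of the table cut to the same length, CACCC was found in 31.7%, CCAAT in 21.3%, GATAA in 10.5%, ATATAA in 4.47% and ATAAAA in 8.3%. These matches are descriptions of the sequence.

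Hbb-bh1, the beta-like gene of the earliest primitive red cells, had a higher signal in Ftx-/- than in WT female eyes. It was 1285, 1735 and 1568 in WT female eyes 1, 2 and 4, and ran from 2134 to 6102 with a median of 3563 over the 11 Ftx-/- eyes. Every Ftx-/- eye lay above every WT female eye. The fitted difference was 1.28 on the log2 scale (SE 0.28, n = 3 and 11), or 2.43-fold, with a limma adjusted p of 0.00183. As whole eyes were measured, a change in the number of red cells and a change in RNA per red cell cannot be told apart. In WT males the signal was 1248, 1411 and 1760, and in Ftx-/Y eyes 1, 2 and 3 it was 1575, 4496 and 2891. Ftx-/Y eye 1, the eye that shared slide 1 with the WT eyes, lay among the WT males, and the other Ftx-/Y eyes lay above all of them. The male difference was 0.91 (SE 0.35), or 1.88-fold, with a limma adjusted p of 0.33. In order of mean signal the groups ran WT male, WT female, Ftx-/Y male and Ftx-/- female, and in this order each pair of neighbours overlapped. With slide in the fit the female difference was 0.27 and with scan day 0.09, and neither passed the test, with limma adjusted p of 0.84 and 0.954.

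Hbb-y, the main beta-like gene of maturing primitive red cells, was also higher in Ftx-/- females. The 5′ probe gave 86650, 82610 and 77470 in WT female eyes 1, 2 and 4, and 92690 to 202000 with a median of 133200 in Ftx-/- eyes. No Ftx-/- eye reached down to the WT females. The difference was 0.73 (SE 0.22), or 1.66-fold, with a limma adjusted p of 0.0134. The 3′ probe gave 113400, 104200 and 100700 in WT females and 110400 to 229500 with a median of 157100 in Ftx-/- eyes. Here the groups overlapped, since Ftx-/- eye 9 lay below WT female eye 1. The difference was 0.53 (SE 0.18), or 1.45-fold, with a limma adjusted p of 0.0264. The 3′ probe's call was lost without any 1 of the WT female eyes, with adjusted p of 0.0604, 0.0859 and 0.0954 without eyes 1, 2 and 4, and that of the 5′ probe without eye 4, at 0.0577. Scaling to the 75th percentile also ended the call of the 3′ probe, with a difference of 0.41 and an adjusted p of 0.0612. With slide in the fit the differences were -0.11 for the 3′ probe and 0.08 for the 5′ probe, and with scan day they were -0.11 and -0.19, none of them past the threshold.

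In males, the 5′ probe of Hbb-y gave 74840, 90680 and 106100 in WT eyes and 113600, 253600 and 182600 in Ftx-/Y eyes. The 3′ probe gave 85740, 100200 and 119200 in WT and 129200, 244300 and 167600 in Ftx-/Y eyes. With both probes the male groups did not overlap. The differences were 0.96 (SE 0.27) and 0.79 (SE 0.22) for the 5′ and 3′ probes, both with a limma adjusted p of 0.231. Both Hbb-y probes had their highest mean in Ftx-/Y males, followed by Ftx-/- females, and these groups overlapped. The WT groups followed, and they too overlapped with each other.

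Hba-x, the embryonic alpha-like gene, gave 6286, 7676 and 5929 in WT female eyes 1, 2 and 4, and 5603 to 17420 with a median of 9077 in Ftx-/- eyes. The groups overlapped, with 9 of 11 Ftx-/- eyes above the WT female mean. The difference was 0.44 on the log2 scale (SE 0.29, 95% interval -0.17 to 1.05), with a limma adjusted p of 0.25. The direction turned with slide or scan day in the fit, to -0.46 and -0.78, with adjusted p of 0.709 and 0.51. In WT males the signal was 5833, 7933 and 5240, and in Ftx-/Y eyes 6657, 20860 and 11550. Only Ftx-/Y eye 1 lay within the WT range. The male difference was 0.91 (SE 0.36) with a limma adjusted p of 0.35. By mean signal Hba-x ran from WT males through WT females and Ftx-/- females to Ftx-/Y males, each pair of neighbours overlapping.

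**Figure D1:**
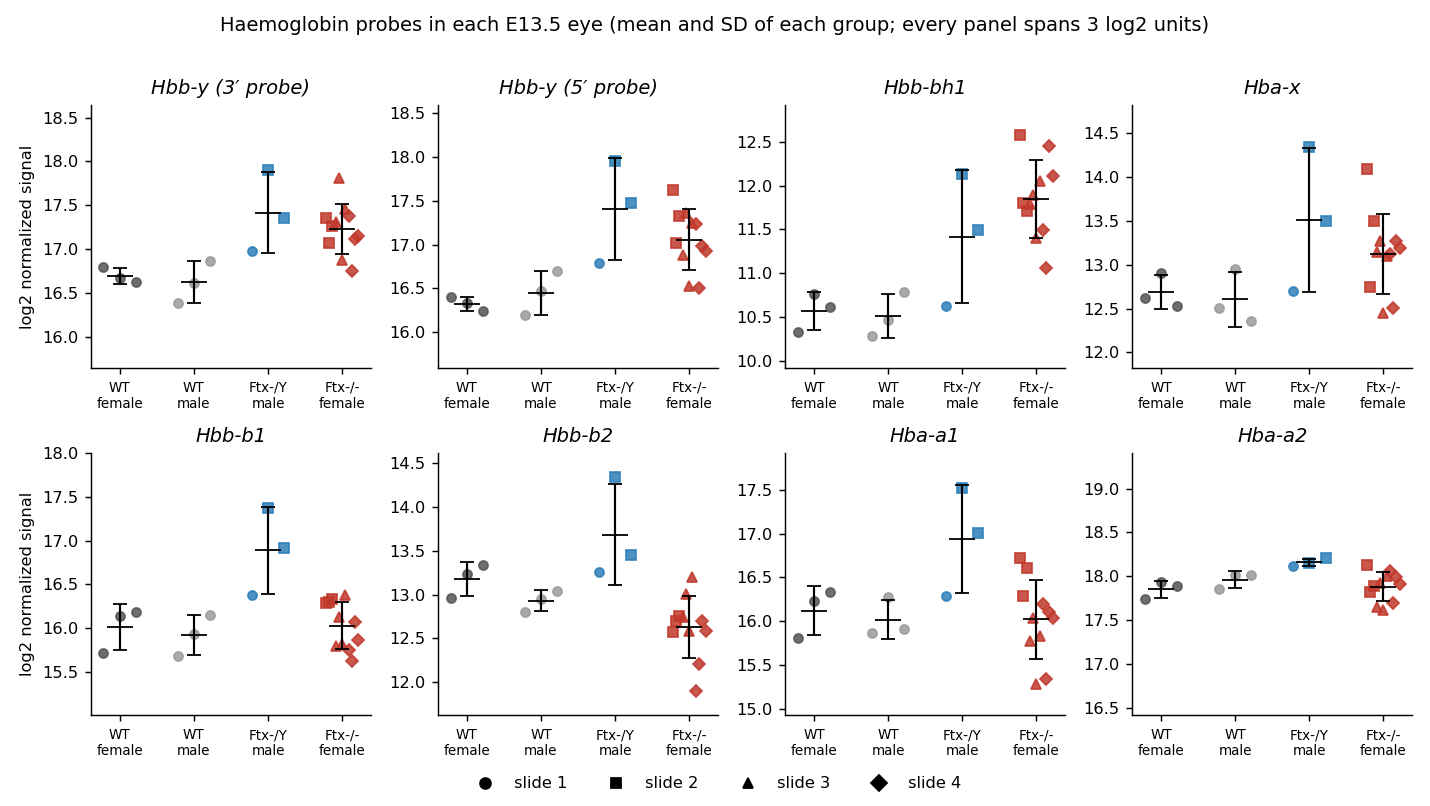
Normalized log2 signal of the 8 haemoglobin probes in each of 20 eyes, by group, with the mean and SD of each group as bars and the slide as the shape of the point. The top row holds the embryonic and the bottom row the adult genes. Hbb-bh1 was above every WT female eye in all 11 Ftx-/- eyes, and all 4 adult genes were highest in Ftx-/Y eyes 2 and 3.

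Hbb-b1, the adult beta gene read by the probe of the Hbb-bt transcript, had close to the same mean signal in WT and Ftx-/- females before slide or scan day was taken into account. It gave 53830, 72050 and 74690 in WT female eyes and 50340 to 85210 with a median of 68540 in Ftx-/- eyes. The difference was 0.02 on the log2 scale (SE 0.18, 95% interval -0.37 to 0.40), with a limma adjusted p of 0.956. It turned to -0.47 with slide and -0.75 with scan day in the fit, with adjusted p of 0.443 and 0.319. In males the signal was 52680, 62360 and 72760 in WT and 85270, 169500 and 123700 in Ftx-/Y eyes. The male groups did not overlap. The male difference was 0.97 (SE 0.23), or 1.96-fold, and had a limma adjusted p of 0.177. Without WT male eye 3 it was 1.08 with an adjusted p of 0.0362. The WT males, WT females and Ftx-/- females overlapped with each other, and the Ftx-/Y males stood above all of them, though Ftx-/Y eye 1, at 85270, was barely above the highest Ftx-/- eye, at 85210.

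Hbb-b2, the adult beta gene whose probe has no position on the build, was lower in most Ftx-/- than WT female eyes, though the difference did not pass the test. It gave 8005, 9626 and 10350 in WT females and 3813 to 9428 with a median of 6635 in Ftx-/- eyes, where 10 of 11 lay below the WT female mean. The groups overlapped. The difference was -0.55 (SE 0.21), or 0.685-fold, with a limma adjusted p of 0.0548. That p fell to 0.0435 without Ftx-/- eye 5 and to 0.0284 without Ftx-/- eye 7, the eyes with the highest Hbb-b2 signal of their group. With slide or scan day in the fit the difference was -1.14 or -1.18, with adjusted p of 0.167 and 0.224. Background correction by normexp gave 0.0453, and a fit of only the groups compared 0.0475. In males the signal was 7132, 7907 and 8449 in WT and 9829, 20810 and 11180 in Ftx-/Y eyes, with no overlap. The male difference was 0.75 (SE 0.27) with a limma adjusted p of 0.308. Ftx-/- females had the lowest mean, followed by WT males, WT females and Ftx-/Y males, and each pair of neighbours in this order overlapped.

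The array has 1 further adult beta probe among those tested, Beta-s, which is no member by name and was singled out after its values were seen, as the other adult beta gene of the strain. It gave 4182 to 5690 in WT females, 2919 to 3914 in WT males, 4594 to 9873 in Ftx-/Y males and 1218 to 3762 with a median of 2994 in Ftx-/- females. All 11 Ftx-/- eyes lay below every WT female and every Ftx-/Y eye. The female difference was -0.84 (SE 0.25), or 0.558-fold, with a limma adjusted p of 0.0149, and without WT female eye 4 the adjusted p was 0.0843. The methods' t-test gave an adjusted p of 0.0803, and in the series table, not normalized between arrays, the difference was -0.55 at 0.0977. With slide in the fit it was -1.42 and with scan day -1.67, with adjusted p of 0.176 and 0.15. The male difference had the opposite sign, 0.94 (SE 0.32), with a limma adjusted p of 0.292.

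Hba-a1 and Hba-a2, the adult alpha genes, did not pass the test in either sex. Hba-a1 gave 57270, 76750 and 82350 in WT females and 40010 to 108500 with a median of 67150 in Ftx-/- eyes. The difference was -0.10 (SE 0.26, 95% interval -0.65 to 0.45), with a limma adjusted p of 0.799. With slide or scan day in the fit it was -0.55 or -1.07, with adjusted p of 0.514 and 0.338. In males it gave 59920, 79460 and 61560 in WT and 80350, 188600 and 131900 in Ftx-/Y eyes, which did not overlap. The male difference was 0.92 (SE 0.33) with a limma adjusted p of 0.308. Apart from the Ftx-/Y males, whose mean was the highest, the groups overlapped and their means lay between 66980 and 72120.

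Hba-a2 gave 218900, 249500 and 241900 in WT females and 200700 to 287200 with a median of 246800 in Ftx-/- eyes. It gave 236700, 265300 and 264600 in WT males and 284400, 290700 and 302300 in Ftx-/Y males. Its differences were small, 0.03 (SE 0.09) in females and 0.20 (SE 0.11) in males, with limma adjusted p of 0.82 and 0.514. The highest Hba-a2 signal, 302300, lay near the top of the measured range, since the brightest value of any probe was 363900. How linear the signal is at that height was not tested.

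Counted over the 8 probes, Ftx-/- against WT females gave 3 called higher and 0 lower at an adjusted p under 0.05, all 3 of them embryonic. Of all 14051 probes tested 35.1% were called in this comparison, 16.8% higher and 18.2% lower, so 3 of 8 is near the share found over the whole array. The median difference of the 4 embryonic probes was 0.63 and that of the 4 adult probes was -0.04, beside -0.01 over all probes tested. The groups did not overlap for 2 of the 8 probes, beside 21.5% of all probes. The study's criteria are a fold above 1.2 or below 0.8 with an unadjusted p under 0.05 by the methods' t-test, and here they were applied to the limma fit unless that test is named. By them 3 were higher and 1, Hbb-b2, was lower, beside 26.7% of all probes. With the methods' t-test 4 were higher and 1 was lower.

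In males, 0 of 8 probes were called by the limma fit at an adjusted p under 0.05, in a comparison where 0.0214% of all probes, or 3 probes, were called. At an unadjusted p under 0.05, 7 of 8 passed, beside 11.8% of all probes, and the same 7 met the study's criteria, all higher, beside 3.61% of all probes higher. The methods' t-test called 0 of 8, both after adjustment and by the study's criteria. All 8 differences were positive, from 0.20 to 0.97, with 3 of 3 Ftx-/Y eyes above the WT male mean each time. The median was 0.91 for the embryonic and 0.84 for the adult probes, beside 0.00 over all probes. Groups did not overlap for 6 of 8, beside 20.6% of all probes. Ftx-/Y eye 1, the 1 Ftx-/Y eye on slide 1, exceeded the WT males by 0.09 to 0.46 on the log2 scale. Without Ftx-/Y eye 2, which had the highest signal of its group for 7 of 8 probes, the differences were 0.20 to 0.73.

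Between WT females and WT males, all on slide 1, the limma fit called 0 of 8 probes. The differences ran from -0.13 to 0.25 with adjusted p between 0.798 and 0.976, and the groups overlapped for all 8, beside 19.2% of all probes without overlap. At an unadjusted p under 0.05 the count was 0 of 8, beside 10.2% of all probes, and the methods' t-test also called 0. Over all probes 0.0712% were called.

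Ftx-/- females against Ftx-/Y males gave 2 called probes, both adult and both lower in females, where 1.96% of all probes were called and 1.42% were lower. Hbb-b1 was lower, at -0.86 on the log2 scale (SE 0.18), or 0.551-fold, with a limma adjusted p of 0.025. Hbb-b2 was lower, at -1.05 (SE 0.21), or 0.482-fold, with a limma adjusted p of 0.0196. For both genes every Ftx-/- eye lay below every Ftx-/Y eye, a separation found in 4.49% of all probes. Hba-a1 differed by -0.92 (limma adjusted p = 0.0824) and Hba-a2 by -0.28 (0.131), while the embryonic probes differed by -0.39 to 0.43 with adjusted p between 0.404 and 0.605. By the study's criteria Hbb-b1, Hbb-b2 and Hba-a1 were lower, 3 of 8, beside 4.13% of all probes lower. The adult median was -0.89, the embryonic median -0.27 and that of all probes 0.00.

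The calls of Hbb-b1 and Hbb-b2 between the sexes rested on few Ftx-/Y eyes. Without Ftx-/Y eye 2 the differences were -0.62 and -0.72 and neither was called, with limma adjusted p of 0.287 and 0.254. Without Ftx-/Y eye 3 they were -0.85 and -1.17, at 0.145 and 0.0721. On slide 2 alone, which held 2 Ftx-/Y and 3 Ftx-/- eyes, they were -0.84 and -1.22, at 0.371 and 0.374, and in a fit of only the 2 groups compared the adjusted p was 0.0602 and 0.0607.

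The interaction, which is the female change minus the male change, was called for 0 of 8 probes and for 0% of all probes by the limma fit. At an unadjusted p under 0.05 it passed for 3 adult probes, beside 13.8% of all probes, and the same 3 met the study's criteria on the lower side, beside 5.77%. These were Hbb-b1 at -0.95 (p = 0.0045), Hbb-b2 at -1.30 (p = 0.00128) and Hba-a1 at -1.02 (p = 0.0262), with limma adjusted p of 0.184, 0.15 and 0.297. The embryonic probes gave -0.47 to 0.37. The median was -0.24 for embryonic and -0.99 for adult probes, beside -0.01 over all probes. The female and male changes use separate WT and Ftx-deficient eyes.

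**Figure D2:**
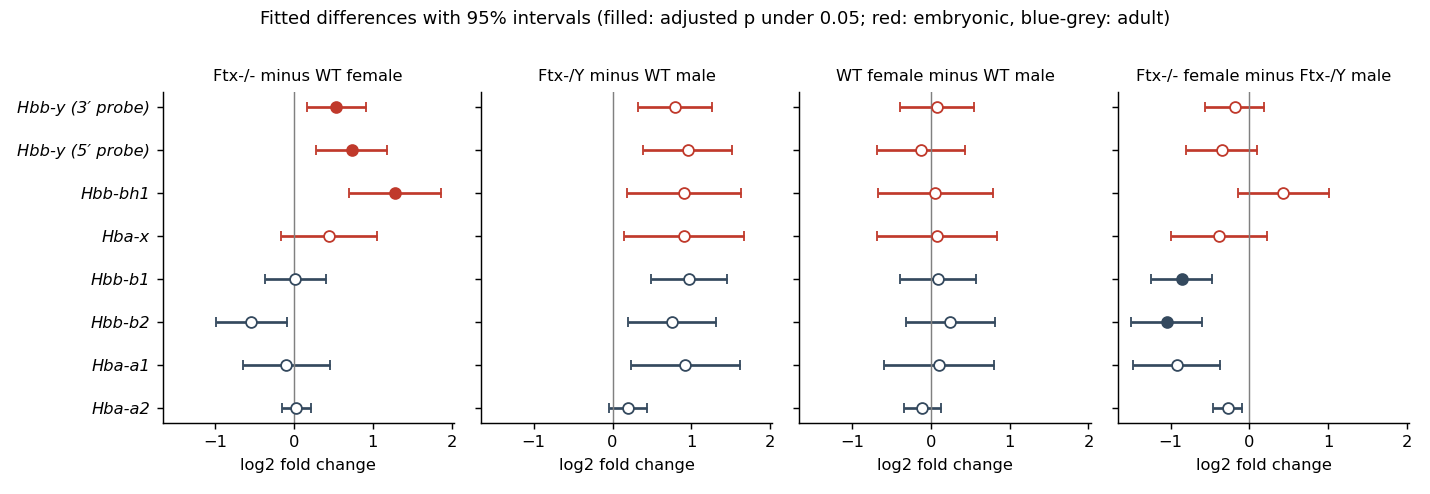
Fitted log2 fold change of the 8 probes with its 95% interval in 4 comparisons, with filled points for an adjusted p under 0.05. Embryonic genes are red and adult genes blue-grey. In females Hbb-bh1 (1.28) and both Hbb-y probes (0.53 and 0.73) are filled, in males all 8 points lie to the right of 0 and none is filled, and between the Ftx-deficient sexes Hbb-b1 (-0.86) and Hbb-b2 (-1.05) are filled.

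The balance between embryonic and adult genes was taken within each eye. For the beta cluster it is the mean log2 signal of Hbb-y and Hbb-bh1 minus that of Hbb-b1 and Hbb-b2, and for the alpha cluster Hba-x minus the mean of Hba-a1 and Hba-a2. Probes differ in brightness, so the mean of the WT females was set to 0 and only differences between eyes were read. A factor that scales all globin signals of an eye alike drops out of it only where the probes respond alike, and in males Hba-a2 differed by 0.20 while the other 7 probes differed by 0.75 to 0.97. The balance has no test, as its members were chosen with results known.

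The beta balance set the Ftx-/- females apart from all other eyes. It was 0.18, 0.00 and -0.18 in WT female eyes 1, 2 and 4, between 0.10 and 0.24 in WT males, and between -0.01 and 0.33 in Ftx-/Y males. In Ftx-/- females it ran from 0.90 to 1.66 with a median of 1.23. The lowest Ftx-/- eye lay above the highest of the other 9 eyes. The group means were 0.00 ± 0.18 (SD, n = 3) in WT females, 0.15 ± 0.07 (n = 3) in WT males, 0.18 ± 0.18 (n = 3) in Ftx-/Y males and 1.22 ± 0.28 (n = 11) in Ftx-/- females. The difference between Ftx-/- and WT females was thus 1.22, a 2.33-fold shift towards the embryonic genes, while that between Ftx-/Y and WT males was 0.03. Between Ftx-/- females and Ftx-/Y males it was 1.04, or 2.05-fold.

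Set by slide, the beta balance of Ftx-/- eyes was 1.22 ± 0.38 (SD, n = 3) on slide 2, 1.08 ± 0.17 (n = 4) on slide 3 and 1.37 ± 0.27 (n = 4) on slide 4. On slide 2, which also held Ftx-/Y eyes 2 and 3 at 0.23 and 0.33, the Ftx-/- eyes exceeded them by 0.94. Ftx-/Y eye 1 on slide 1 was at -0.01. With slide or with scan day in the fit the female difference was 0.93. Leaving out any 1 eye gave 1.13 to 1.31.

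Each beta pair was also taken alone. Between Ftx-/- and WT females Hbb-bh1 against Hbb-b2 shifted by 1.83, Hbb-bh1 against Hbb-b1 by 1.27, Hbb-y against Hbb-b2 by 1.18 and Hbb-y against Hbb-b1 by 0.62. The groups overlapped only for the last pair. With Beta-s added to the adult genes the shift was 1.41, with Hbb-b1 and Beta-s as the adult genes 1.37, and with the 5′ probe of Hbb-y alone 1.27, all chosen after the data were seen.

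The alpha balance separated the groups less. In males its pairs disagreed, with a shift of -0.01 for Hba-x against Hba-a1 and 0.71 against Hba-a2. It was -0.27 to 0.15 in WT females, -0.31 to 0.11 in WT males, -0.21 to 0.81 in Ftx-/Y males and -0.01 to 0.96 with a median of 0.52 in Ftx-/- females. The groups overlapped throughout. The means were 0.00 ± 0.24 (SD, n = 3), -0.08 ± 0.21 (n = 3), 0.26 ± 0.51 (n = 3) and 0.48 ± 0.26 (n = 11). On slide 2 alone Ftx-/- females and Ftx-/Y males differed by 0.00. With slide in the fit the difference between Ftx-/- and WT females turned to -0.20, and with scan day to -0.23. Taken apart, Hba-x shifted by 0.54 against Hba-a1 and by 0.41 against Hba-a2 in females.

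**Figure D3:**
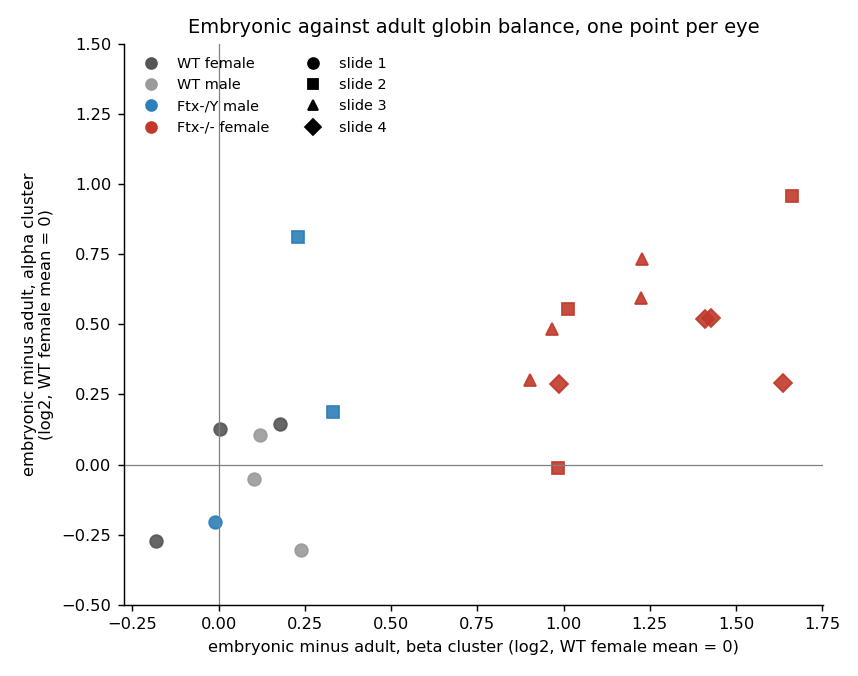
Embryonic minus adult globin balance of each of 20 eyes, with the beta cluster on the x axis and the alpha cluster on the y axis, both in log2 units with the WT female mean at 0. Colour gives the group and shape the slide. The 11 Ftx-/- eyes lie at 0.90 or more on the x axis and all other eyes at 0.33 or less, while on the y axis the groups overlap.

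The eyes varied within a group, and the globin probes largely moved together in that variation. Ftx-/Y eye 1 was the lowest of its group for 8 of 8 probes and Ftx-/Y eye 2 the highest for 7. Among Ftx-/- females, eye 1 was the highest for 5 probes, eye 9 the lowest for 4 and eye 6 the lowest for 3. With each group's mean taken out, the Pearson correlation over the 20 eyes between 2 member probes ran from 0.0793 for Hba-a2 with Hbb-b2 to 0.866 for the 2 Hbb-y probes. Hba-x and Hba-a1 correlated at 0.853. These eyes share slides and groups, and the correlations are given as a description.

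By the same measure, the 5 probes of other genes most like each member included a red cell gene for all members but Hba-a2, beside other genes and probes without a gene name. Alas2, the haem synthesis enzyme that is specific to red cells, was the most like probe for Hbb-bh1 (r = 0.89), Hba-x (0.891) and Hba-a1 (0.89) and shared first place for Hbb-b1 (0.846). Ahsp, the chaperone of free alpha chains, reached 0.846 with Hbb-b1 and 0.778 with Hbb-bh1. Beta-s was the most like probe for Hbb-b2 (0.859). For the 3′ probe of Hbb-y the most like probe carries no gene name (0.722), and Alas2 came after 2 more probes, at 0.668. Hba-a2 had no red cell gene among its 5 most like probes, the first of which was Ednrb, the endothelin receptor B, at 0.784.

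Red cell genes outside the globins differed among themselves. Of 10 marker names for red cells 8 were on the array, and only Alas2, Ahsp and Hemgn passed the filter on signal. Alas2 differed by -0.01 (SE 0.25) in females and 1.03 (SE 0.31) in males, and Ahsp by -0.04 (SE 0.20) and 0.95 (SE 0.25), with limma adjusted p of 0.971 and 0.252 for Alas2 and 0.893 and 0.211 for Ahsp. With slide or scan day in the fit the female difference was -0.79 or -1.13 for Alas2 and -0.73 or -0.88 for Ahsp, none of them called. In the fit without these terms their differences lay near those of Hbb-b1 in both sexes. Hemgn, a nuclear protein of blood progenitors and red cells, rose in Ftx-/- females by 1.05 (SE 0.29) with a limma adjusted p of 0.0092, which became 0.0552 and 0.0597 without WT female eyes 2 and 4. With slide or scan day in the fit the difference was 0.90 or 1.00 and was not called, at 0.531 and 0.461. In males Hemgn differed by 0.83 (SE 0.36) with a limma adjusted p of 0.383. The summed signal of the 8 markers was 11040 to 16620 in WT females, 8772 to 15180 in WT males, 17550 to 20860 in Ftx-/Y males and 13430 to 42430 in Ftx-/- females. Most of that sum was Hemgn, whose mean signal was 10820, 9036, 15480 and 23090 in these groups. The part of red cell content in the globin differences was not tested. Slc4a1, the anion exchanger of the red cell membrane, had group means from 264 to 442, while Rhag was well above background on 0 of 31 arrays.

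**Figure D4:**
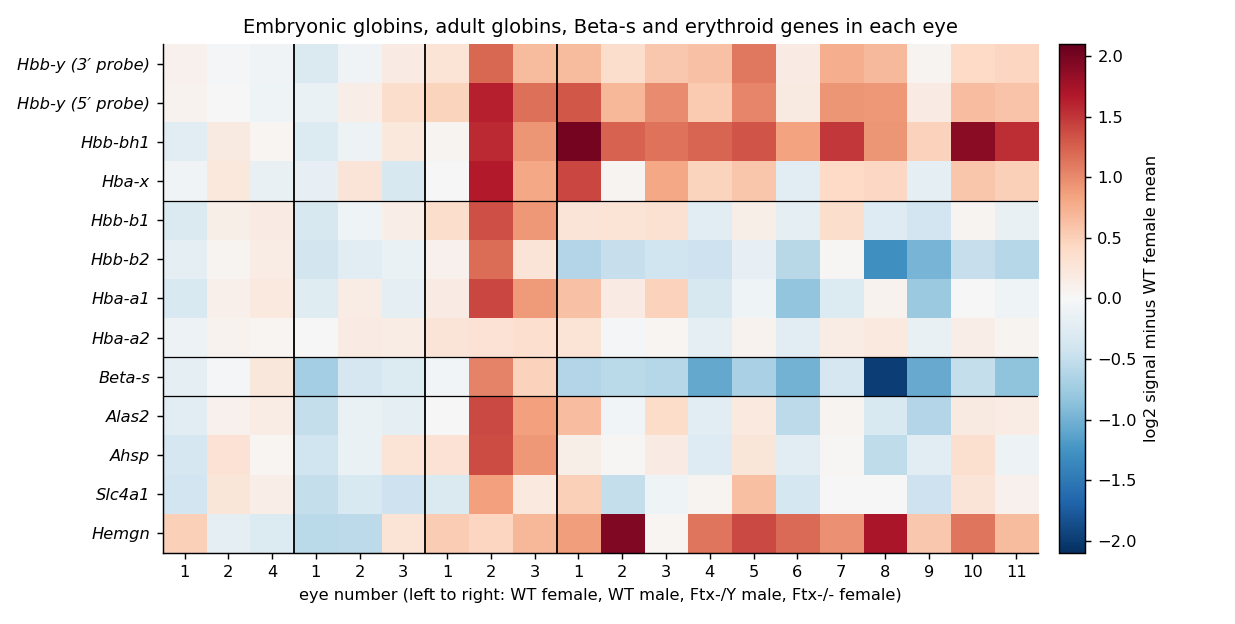
Log2 signal of the globin probes, Beta-s and 4 erythroid genes in each of 20 eyes, as the difference from the WT female mean of the same probe, with red for higher and blue for lower. Eyes are columns, ordered by group. In the Ftx-/- columns the rows of Hbb-bh1 and Hbb-y are mostly red, those of Hbb-b2 and Beta-s mostly blue, and in Ftx-/Y eyes 2 and 3 nearly all rows are red.

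Lists of genes around haemoglobin did not move as a block in Ftx-/- females. Of 7 tested probes of red cell membrane and cytoskeleton genes 2 were higher and 1 lower (median -0.07). Among these Epb4.9, or dematin, was higher by 1.13 by 1 probe (limma adjusted p = 0.0209). Its other probe, below the filter, had means of 346 in WT and 176 in Ftx-/- females. Gypc was higher by 0.19 (limma adjusted p = 0.0443), a call that was lost under 19 of 29 alternatives. Spnb1, the red cell beta spectrin, was lower at -0.74 (0.00817). Of 22 probes for haem synthesis and iron 3 were higher and 3 lower (median -0.01). Uros, which makes uroporphyrinogen III, rose by 0.40 (limma adjusted p = 0.000445), while Ppox and Alad, enzymes of the same pathway, had differences of -0.42 and -0.32 (0.000856 and 0.00447). Tmem14c and Alas1 rose by 0.24 and 0.14 and Slc25a39 was lower at -0.33. In males 0 probes of either list were called by the limma fit, with 1 probe of the haem list past the study's criteria, and the medians were 0.09 and 0.03.

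Of 9 probes for erythroid transcription and globin regulators 2 were higher in Ftx-/- females and 3 lower (median 0.06). Hemgn, given above, was 1 of them, and Myb, a factor of immature blood cells that is also made in other dividing cells, was higher by 0.35 (limma adjusted p = 0.0021). Lmo2 was lower at -0.41 (0.0308), and both probes of Zfpm1, the cofactor of Gata1, were lower at -0.24 and -0.20 (0.0066 and 0.0185). Of 11 probes for red cell enzymes and chaperones 1 was higher, Bnip3l at 0.39 (0.0253) by 1 of its 4 probes, and 3 were lower, Cat at -0.87 (0.0299), Gpx1 at -0.36 (0.0047) and Prdx2 at -0.16 (0.019), with a median of -0.04. Many genes of these lists are used by all cells. Of all probes tested 35.1% were called, 16.8% higher and 18.2% lower. The counts of these lists were not tested against those shares. Of 27 called probes taken up by the naming rule from the lists around haemoglobin and the marker lists, 0 were called with slide or with scan day in the fit. Some differences stayed close to their size, such as Bfsp1 at -1.16 with slide and -1.30 with scan day and Sox2 at 0.40 and 0.46. Lmo2 turned to 0.28 with slide and was at -0.0071 with scan day. Others shrank, such as Bnip3l to 0.11 and 0.14 and Myb to 0.18 and 0.21.

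Markers of the other cell types of the eye were read in the same libraries. Lens genes were lower in Ftx-/- females at 8 of 10 probes (median -0.83), with Bfsp1 at -1.11 and Crygb at -0.95, and their summed signal was 722600 to 794400 in WT females and 604000 to 743100 in Ftx-/- females. Both endothelial probes tested read Kdr, the VEGF receptor of vessel walls, and they disagreed. One was lower, at -1.21 (limma adjusted p = 0.00488), with -0.81 with slide and -0.15 with scan day in the fit, both without a call, and a mean of 2409 in Ftx-/Y beside 2478 in Ftx-/- eyes. The other differed by 0.19 (0.0595). The dimmer markers Tie1, Cdh5, Emcn and Pecam1 had higher means in Ftx-/- than in WT females, and the summed endothelial signal was 10120 to 11180 in WT females, 7168 to 10160 in Ftx-/- females and 7571 to 9465 in Ftx-/Y males. The summed signal of pigment markers ran from 2825 to 37680 among Ftx-/- eyes and from 4840 to 7599 in WT females. Of 3 macrophage probes only Cx3cr1 was called, higher by 0.52 (limma adjusted p = 0.00154), and the median of the 3 was -0.0023. The summed macrophage signal was 6224 to 6706 in WT females and 6035 to 8419 in Ftx-/- females. Of 7 retinal progenitor probes 2 were higher, among them Sox2 by 0.37, and 0 lower, with a median of -0.20 and differences down to -0.40 for Six3 (limma adjusted p = 0.156). Of 4 ganglion cell probes Isl1 was higher by 0.33 and Elavl3 lower at -0.31, calls that were lost under 9 and 11 of 29 alternatives, and Elavl3 was at -0.05 with slide and -0.11 with scan day in the fit. No probe of the marker lists for platelets (1 tested), pigment epithelium (3) or haematopoiesis of the liver type (2) was called. None of the 5 markers of periocular mesenchyme passed the filter on signal. Their summed signal was 350.2 to 1054 in WT females, 680 to 3421 in WT males, 929.5 to 2047 in Ftx-/Y males and 1220 to 11780 in Ftx-/- females, so that every Ftx-/- eye lay above every WT female eye. The part of these cell types in the globin differences was not tested.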

How the data were processed

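Eyes of E13.5 embryos were profiled on Agilent arrays with 1 dye, Cy3. For each of 62976 spots per array, 3671 of them controls, the authors deposited the intensity after background subtraction by Agilent Feature Extraction 11.0.1.1, with flags, per the file headers. The series table they deposited holds the same intensities, rounded (largest difference 0.498%) and not normalized, and was used only as an alternative on the log2 scale. With all spots but the controls, the arrays were brought to a common distribution by qspline, the method of the study. It was written out in R 4.3.3 (100 sampled quantiles, 5 iterations, least offset 5). After that, 5751 spots over the 31 arrays were left out, flagged as uneven or as outliers of their replicate spots. The remaining spots of a probe were averaged on the log2 scale. The 2 arrays of an Ftx-/- eye, which correlated at 0.994 to 0.999 over the probes tested, were averaged on the log2 scale.

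Groups came from the sample titles. All 20 eyes entered 1 fit in limma 3.58.1 (lmFit, and eBayes with trend), 2-sided, with Benjamini-Hochberg adjustment over 14051 probes. Differences are on the log2 scale, signals are linear, and called means an adjusted p under 0.05. The fit was tested on simulated data. The median intensity of an array was 34.2 to 75.0 and 48.16% to 70.37% of its probes were well above background, and the number of eyes limits the precision. Named were all member probes, the up to 3 largest called rises and 3 largest called falls of each gene list in Ftx-/- against WT females, defining markers, and the 5 most like probes of each member. Values of 2 marker genes are not reported here. The members, gene lists and tests were chosen with earlier results of these data known. Alternatives covered normalization, background, filters, slide, scan day, replicate number, single arrays, each eye left out, and the methods' t-test. Probe sequences, names and mm9 positions came from the array files and promoters from RefSeq.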

Additional observations from a re-analysis of the deposited data

Results flagged for a closer look

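Opposite changes were looked for only among the haemoglobin probes, Beta-s, the tested red cell markers and the probes named from the gene lists. For 4 of these probes every Ftx-/- eye lay on 1 side of the WT female mean. Every Ftx-/Y eye lay on the other side of the WT male mean. The share of all tested probes with this pattern was not counted. Spnb1, Tmem14c and Alas1 were named because they were called in Ftx-/- against WT females, so their female side was largely set by that choice. As the 4 probes were chosen for opposite changes, p-values of the difference between the changes are no separate test of it. For Beta-s the female change minus the male change was -1.78 on the log2 scale, with a limma adjusted p of 0.15. It was -0.82 for Spnb1, 0.30 for Tmem14c and 0.17 for Alas1, with limma adjusted p of 0.274, 0.231 and 0.293, so that none of the 4 differences between the sexes passed the test.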

How the results depend on the processing

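The limits are these. Slide and scan day separate Ftx-/- from WT females, and a fit with either as a block rests on the 3 Ftx-/Y eyes. With slide or with scan day as a block 0 of 8 globin probes were called between Ftx-/- and WT females, in place of 3. The beta balance kept its direction at 0.93 with either block, and the alpha balance turned to -0.20 with slide and -0.23 with scan day. The difference of the alpha balance between Ftx-/Y and WT males turned to -0.12 with slide, with scan day and on slide 1 alone. The cause was not tested. With slide as a block the female differences of Hbb-y (3′ probe), Hba-x, Hbb-b1 and Lmo2 turned to -0.11, -0.46, -0.47 and 0.28. With scan day those of the Hbb-y 3′ and 5′ probes, Hba-x, Hbb-b1 and Hba-a2 turned to -0.11, -0.19, -0.78, -0.75 and -0.030, and the interaction of Hbb-bh1 to -0.024.

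Between Ftx-/- females and Ftx-/Y males the count of 2 called globin probes was 0 with slide as a block, on slide 2 alone, in a fit of only the groups compared, with the series table, with the replicate number as a block and by the study's criteria on the methods' t-test, and 1 (Hba-a2) by the adjusted t-test. By the study's criteria on the limma fit it was 3, and the counts were then 7 between Ftx-/Y and WT males and 3 for the interaction, in place of 0. Between Ftx-/- and WT females the count was 2 with the replicate block and 5 by the study's criteria on the t-test. The cause was not tested. Leaving out each eye in turn gave 1 to 4 called probes between Ftx-/- and WT females, with 1 without WT female eye 4, 0 to 1 between Ftx-/Y and WT males, and 0 to 3 between Ftx-/- and Ftx-/Y, with 0 without Ftx-/Y eye 2 or 3.

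For single pairs of genes the shift in the beta balance was 0.62, 1.83 and 1.27 between Ftx-/- and WT females for Hbb-y against Hbb-b1, Hbb-bh1 against Hbb-b2 and Hbb-bh1 against Hbb-b1. Between Ftx-/- females and Ftx-/Y males it was 0.59 for Hbb-y against Hbb-b1, 0.78 for Hbb-y against Hbb-b2, 1.29 for Hbb-bh1 against Hbb-b1 and 1.48 for Hbb-bh1 against Hbb-b2. The interaction was 0.71 for Hbb-y against Hbb-b1, 1.67 for Hbb-bh1 against Hbb-b2 and 1.43 with Hbb-b1 and Beta-s as the adult genes. For Hba-x against Hba-a1 the alpha shift was -0.015 between the male groups, 0.53 between the Ftx-deficient sexes and 0.55 for the interaction, and for Hba-x against Hba-a2 it was 0.71, -0.11 and -0.30.

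The series table, which has no normalization between arrays, moved the median of all 14051 probes by 0.26 between Ftx-/- and WT females, -0.16 between the WT sexes, 0.19 between the Ftx-deficient sexes and 0.35 for the interaction, and 2611 probes were then called higher and 191 lower in Ftx-/- females, in place of 2365 and 2560. Differences that turned under it were, between Ftx-/- and WT females, 0.070 for Hba-a1, 0.22 for Ahsp, 0.25 for Alas2, 0.038 and 0.076 for Zfpm1 and 0.023 for Prdx2. Between the WT sexes they were -0.0075 for Hbb-y (3′ probe), -0.12 for Hbb-bh1, -0.082 for Hba-x, -0.024 for Hbb-b1, -0.013 for Hba-a1 and -0.085 for Ahsp. For Hbb-y (3′ probe) it was 0.041 between the Ftx-deficient sexes and 0.049 for the interaction, where Hbb-y (5′ probe) gave 0.097 and Hba-a2 0.078. Scaling to the 75th percentile turned the female differences of Hbb-b1, Hba-a2 and Alas2 to -0.0495, -0.15 and 0.0046, and normexp turned those of Hbb-b1 and Hba-a2 to -0.0066 and -0.016. Alas2 turned to 0.0027 on the second array of each eye and to 0.023 by the t-test.

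No pairing of the eyes by replicate number was seen, though with 3 WT eyes of each sex this check cannot exclude it. Deviations from the group mean correlated at -0.216, 0.139 and -0.0595 for same-numbered female eyes and -0.164, -0.0577 and -0.0256 for male eyes. For eyes with different numbers they correlated at -0.161 to 0.193 in females and -0.0643 to 0.166 in males. The replicate block turned the female differences of Hba-a1 and Alas2 to 0.19 and 0.13 and that of Hbb-y (5′ probe) between the WT sexes to 0.020. Some differences also turned when 1 eye was left out. Between Ftx-/- and WT females their ranges were -0.13 to 0.10 for Hbb-b1, -0.26 to 0.0057 for Hba-a1, -0.025 to 0.069 for Hba-a2, -0.22 to 0.11 for Ahsp and -0.14 to 0.066 for Alas2. Between the WT sexes they were -0.044 to 0.19 for Hbb-y (3′ probe), -0.054 to 0.19 for Hbb-bh1, -0.046 to 0.25 for Hba-x, -0.026 to 0.24 for Hbb-b1, -0.0027 to 0.26 for Hba-a1 and -0.073 to 0.28 for Ahsp. For the interaction they were -0.53 to 0.046 for Hbb-y (5′ probe), -0.024 to 0.73 for Hbb-bh1 and -0.063 to 0.47 for Hemgn, and between the Ftx-deficient sexes -0.40 to 0.061 for Hbb-y (3′ probe) and -0.79 to 0.029 for Hba-x. No spot was saturated, so leaving such spots out changes nothing.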
